A study of Mus musculus with 4 samples.

Results

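The 10 genes described here encode the building blocks of the synaptonemal complex, Sycp1, Sycp2, Sycp3, Syce1, Syce2, Syce3, Tex12 and Six6os1, and the chromosome axis proteins Hormad1 and Hormad2. They were chosen by name, for the structure they build, and are 10 of 36088 genes in the deposited table. Of these symbols 9 stand in the table as written, and Six6os1 stands there as 4930447C04Rik, to which RefSeq ties the name Six6os1 as a synonym. RNA was measured in 2 libraries of germ cells from cultures with CBR-5884, known as an inhibitor of the serine synthesis enzyme Phgdh, and in 2 libraries from cultures with DMSO, its solvent. All 4 came from wild-type (WT) mice, from male germ cells purified out of fetal testes that were grown in culture, and the sample titles give day 14. No source used here gives the age of the fetuses, the dose and timing of the inhibitor or the gate of the sort, and no genetic change separates the groups. The study asked what serine metabolism does for male germ cells as they differentiate.

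In meiotic prophase, paired chromosomes are joined along their length by the synaptonemal complex. Sister chromatids are first laid out as loops along an axis of cohesin, Sycp2, Sycp3 and the HORMA domain proteins. Filaments of Sycp1 then reach from each axis to the midline, where the central element proteins Syce1, Syce2, Syce3, Tex12 and Six6os1 hold them together. Hormad1 and Hormad2 sit on axes that are not yet joined, where Hormad1 promotes DNA breaks and Hormad2 helps recruit the kinase Atr, and the ATPase Trip13 removes both as the complex forms. In mice the mRNAs of several of these genes are already present in spermatogonia, before the proteins assemble, and in somatic cells many germline genes of this kind are kept silent through promoter methylation and the repressor complex of E2f6, Mga, Max, L3mbtl2 and Pcgf6.

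All 10 mRNAs were present in all 4 libraries at moderate to high levels, and none differed between CBR-5884 and DMSO past the threshold. The members' mean levels ran from the 60.1th to the 94.0th percentile of the 14920 genes tested. Of those 14920 genes, 0 were called at an adjusted p under 0.05 (0%; limma with Benjamini-Hochberg adjustment), and 0 of the 10 members were; without adjustment, 546 genes (3.66%) had a p under 0.05, among them 2 members, Six6os1 and Tex12. The adjusted p was 0.998 for each of the 10. Fold changes were small but leaned to one side: 9 members had a positive and 1 a negative log2 fold change, with a median of 0.14, where 47.2% of all genes tested were positive and their median was −0.01. The members were measured in the same libraries, so these 10 values are not independent.

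TPM, transcript abundance scaled for length and library total, summed to 966761 to 1002976 per library, and between 22100 and 22988 genes had a value above 0. Read depth is not given. It was estimated from the commonest low value of scaled reads times length, among genes with 1 transcript and within a set window. That estimate depended on its settings. Relative depth was 1.24 and 1.15 in CBR-5884 libraries 2 and 4 and 1.15 and 1 in DMSO libraries 2 and 4 under the later settings, chosen after the first result had been seen. Under the first settings it was 1.32 and 1.32 with CBR-5884 and 1 and 1.07 with DMSO, so the order of the DMSO libraries is not settled. Under both settings the CBR-5884 libraries were estimated at or above both DMSO libraries. Under the later settings CBR-5884 library 4 and DMSO library 2 were nearly equal. The part of depth in the differences between the groups was not tested. The library names carry a condition and the number 2 or 4, and which labelled replicate each number stands for was not settled. Germ cell markers summed to 2558 and 2523 TPM with CBR-5884 and to 2540 and 2506 TPM with DMSO over 7 genes, with 6 of 7 at a mean of 1 TPM or more. That list holds Sycp3, a member; without it the sums were 2362 and 2331 TPM with CBR-5884 and 2350 and 2344 TPM with DMSO. Sertoli cell markers, from the supporting cells of the testis, were all present (7 of 7) and summed to 239 and 198 TPM in CBR-5884 libraries 2 and 4, against 282 and 164 TPM in DMSO libraries 2 and 4. Peritubular and stromal, endothelial, and macrophage and blood markers summed to at most 56.1, 10.4 and 13.9 TPM in any library, and of 6 Leydig markers 1, Star, averaged 1 TPM or more. Hba-a1 and Hbb-bs, the haemoglobin genes of the blood list, were listed at 0 in all 4. Fewer cells of a stage and less RNA per cell cannot be told apart in bulk RNA.

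As TPM is a value per length, levels were set in order between genes. How the values were brought to gene level is not given, so the order is that of the deposited values. Syce2 was highest, with 189 to 221 TPM over the 4 libraries, followed by Sycp1 (166 to 208 TPM) and Sycp3 (162 to 196 TPM), and these ranges overlapped. Six6os1 stood apart below them with 85.9 to 124 TPM, and its range overlapped neither neighbour. Then came Syce1 (73.1 to 76.4 TPM), Sycp2 (60.9 to 76.6 TPM), Hormad1 (58.6 to 71.5 TPM), Tex12 (49.8 to 63.2 TPM) and Syce3 (36.9 to 54.9 TPM), each overlapping the next. Hormad2 was lowest, with 29.2 to 36.9 TPM; its highest library, at 36.92 TPM, lay just under the lowest of Syce3, at 36.94 TPM, so the ranges did not overlap, and Syce3 was the higher of both in each of the 4 libraries. The mean level of Syce2 was 6.02 times that of Hormad2. Syce1 varied least over the libraries, with a coefficient of variation of 1.94%, and Syce3 most, with 17.8%.

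**Figure D1:**
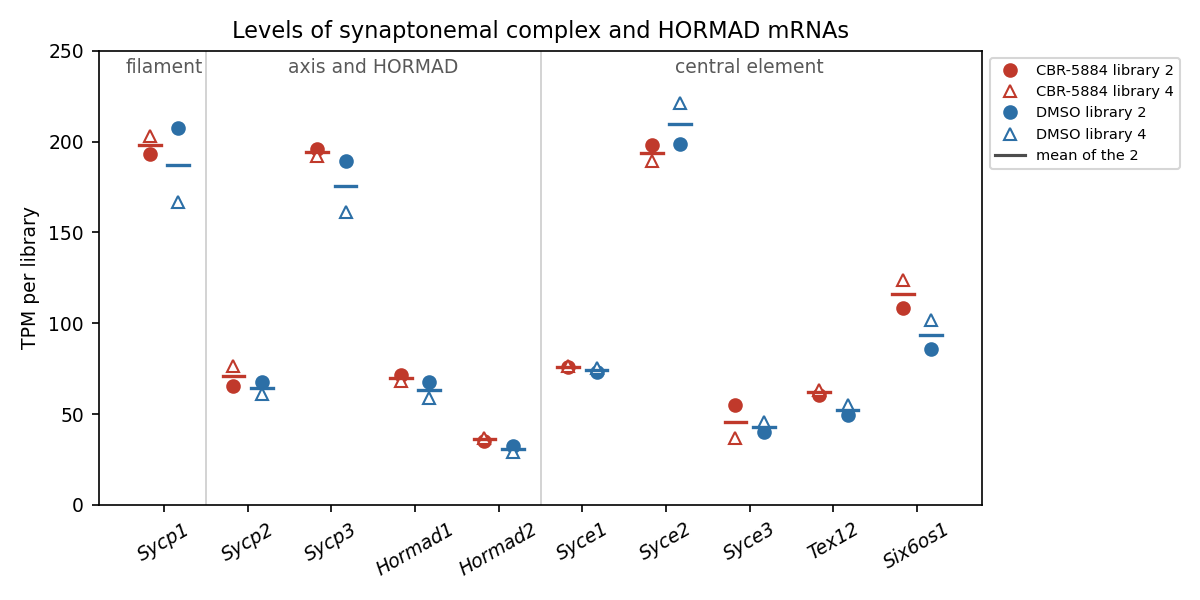
TPM of each gene (vertical axis, linear from 0) in the 2 CBR-5884 libraries (red, left) and the 2 DMSO libraries (blue, right); circles are library 2, open triangles library 4, and bars the mean of the 2. Syce2, Sycp1 and Sycp3 sit between 162 and 221 TPM, and the other 7 genes at or below 124 TPM in every library.

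The stretches before the transcript starts are shown for the 5 members that hold the E-box CACGTG, the sequence that Mga and Max bind together, and for Syce2, the most abundant member, which holds none of the motifs searched. Sequences are from RefSeq on GRCm38.p6, read 5′ to 3′ on the gene's strand and cut where an annotated exon begins within the 250 bases before the start. Capitals mark matches, on either strand, to CACGTG, to TTCCCGC (the core of the E2F site, read GCGGGAA on the other strand) and to CCTCAG (the core of a motif reported at promoters bound by Stra8, read CTGAGG on the other strand). TGACGTCA, the cyclic AMP response element, was searched too and had no match.
Sycp1 (chr3:102936101-102936350, minus strand): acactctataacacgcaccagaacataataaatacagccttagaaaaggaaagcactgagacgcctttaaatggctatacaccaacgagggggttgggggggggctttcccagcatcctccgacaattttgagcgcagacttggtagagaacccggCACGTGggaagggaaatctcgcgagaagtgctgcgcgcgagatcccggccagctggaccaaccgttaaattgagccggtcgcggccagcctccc
Sycp3 (chr10:88459337-88459568, plus strand): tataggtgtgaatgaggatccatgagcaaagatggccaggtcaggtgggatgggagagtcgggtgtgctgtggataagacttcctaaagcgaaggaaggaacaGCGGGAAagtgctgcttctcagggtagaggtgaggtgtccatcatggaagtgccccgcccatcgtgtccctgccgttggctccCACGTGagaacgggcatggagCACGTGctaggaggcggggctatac
Hormad1 (chr3:95559427-95559676, plus strand): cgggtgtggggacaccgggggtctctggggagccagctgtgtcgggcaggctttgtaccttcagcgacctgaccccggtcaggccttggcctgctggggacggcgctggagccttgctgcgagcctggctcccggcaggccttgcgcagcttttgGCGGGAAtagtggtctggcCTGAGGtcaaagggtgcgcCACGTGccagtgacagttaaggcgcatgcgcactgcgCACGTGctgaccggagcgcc
Tex12 (chr9:50561326-50561518, minus strand): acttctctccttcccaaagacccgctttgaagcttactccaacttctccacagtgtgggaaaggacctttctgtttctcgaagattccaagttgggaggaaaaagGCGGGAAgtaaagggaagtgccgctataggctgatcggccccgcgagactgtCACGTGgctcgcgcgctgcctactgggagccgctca
Six6os1 (chr12:72917907-72918015, minus strand): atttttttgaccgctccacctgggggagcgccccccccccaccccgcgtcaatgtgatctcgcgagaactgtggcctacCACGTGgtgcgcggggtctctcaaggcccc
Syce2 (chr8:84871861-84872110, plus strand): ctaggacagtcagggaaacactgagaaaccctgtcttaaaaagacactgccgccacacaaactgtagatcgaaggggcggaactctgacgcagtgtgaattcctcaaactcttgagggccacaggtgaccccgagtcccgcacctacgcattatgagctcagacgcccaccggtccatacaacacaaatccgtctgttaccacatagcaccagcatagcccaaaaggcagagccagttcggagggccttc

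RefSeq held a promoter window for all 10 members. In the 250 bases before the start, CACGTG occurred in 5 of 10 members, against 6.05% of 27025 promoters of the same length and 8.70% of the 10662 tested genes with a window. Sycp3 held it at 64 and 43 bases before the start and Hormad1 at 57 and 20 bases, while Sycp1 (94 bases), Tex12 (93 bases) and Six6os1 (171 bases) held it at 1 place each. The RefSeq start of Six6os1 lies 23009 bases inside the gene as GENCODE draws it, 5 bases from the nearest of its 9 annotated transcript starts, and 3 of the 9 transcripts start over 1000 bases upstream, where no window was searched. For the other members the start lies at most 57 bases inside the GENCODE gene. TTCCCGC occurred in 3 of 10, Sycp3, Hormad1 and Tex12, against 3.84% of all promoters and 7.25% of those of tested genes. Each of these 3 also held the E-box. CCTCAG occurred in 4 of 10, Hormad1, Hormad2, Tex12 and Six6os1, against 22.2% of all promoters. In Tex12 and Six6os1 the match lay in annotated exon sequence of the gene, 7 and 117 bases before the RefSeq start, and is not printed. Sycp2, Syce1, Syce2 and Syce3 held none of the 4 motifs, and no 2 matches shared a base. The ratio of observed to expected CpG ran from 0.288 in Syce3 to 0.893 in Sycp1 and lay above the median of all promoters, 0.378, in 8 of 10 members. A match is a description of these letters, and no binding was measured.

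**Figure D2:**
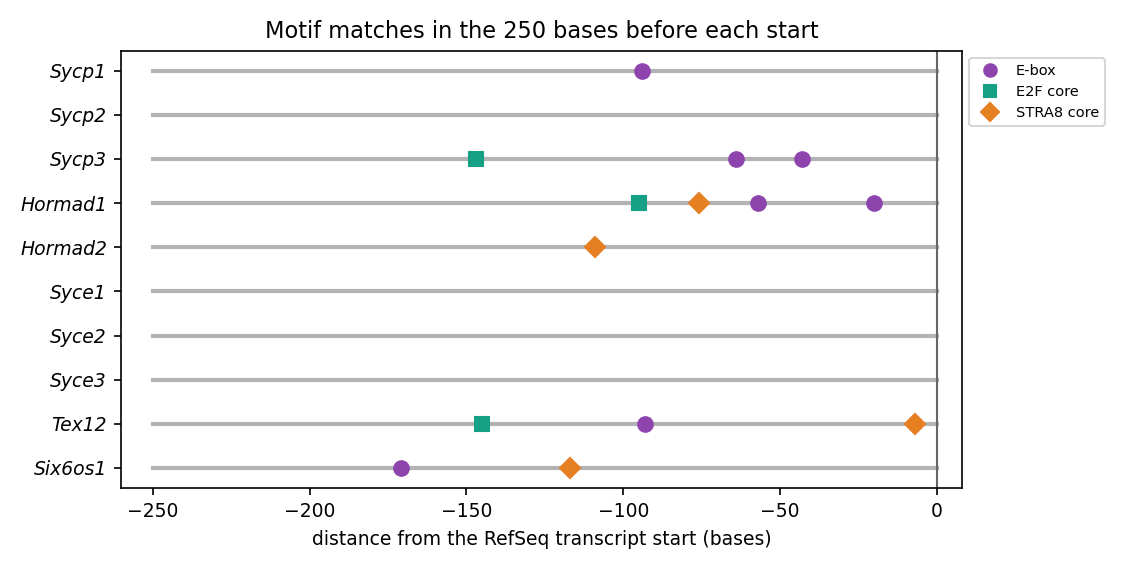
Positions of motif matches (symbols) in the 250 bases before the RefSeq start of each gene (horizontal axis, distance from the start in bases; grey lines are the windows). E-boxes stand in Sycp1, Sycp3, Hormad1, Tex12 and Six6os1, and Sycp2, Syce1, Syce2 and Syce3 hold no match.

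Sycp1, the filament that spans from the axis to the midline (chromosome 3, 102818499 to 102936100, minus strand, GRCm38), had 193 and 203 TPM in CBR-5884 libraries 2 and 4 and 208 and 166 TPM in DMSO libraries 2 and 4. The CBR-5884 libraries lay between the DMSO libraries, so the groups overlapped. The log2 fold change was 0.09 (SE 0.12; 95% interval −0.19 to 0.37; limma adjusted p = 0.998), and it was −0.07 without DMSO library 4. A share of 15.6% of its 31-base words is found elsewhere, mostly in the pseudogene Sycp1-ps1, which had 1.23 to 1.91 TPM.

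Both core axis genes had slightly higher means with CBR-5884. Sycp3, which forms the fibres of the axis (chromosome 10, 88459569 to 88473236, plus strand), had 196 and 192 TPM with CBR-5884, against 189 and 162 TPM with DMSO. All CBR-5884 values lay above all DMSO values, by a gap small beside the distance between the DMSO libraries. Its log2 fold change was 0.15 (SE 0.10; 95% interval −0.09 to 0.38; limma adjusted p = 0.998). Leaving out DMSO library 4 gave 0.03, and leaving out DMSO library 2 gave 0.26. Sycp3 shares 46.5% of its 31-base words with other genes, mainly Chpt1, which lies across it on the other strand and encodes a choline phosphotransferase. The sum of Sycp3 and Chpt1 was 254 and 258 TPM with CBR-5884, against 255 and 229 TPM with DMSO, and there the groups overlapped. Sycp2, the partner that binds Sycp3 along the axis (chromosome 2, 178345293 to 178407685, minus strand), had 65.7 and 76.6 TPM with CBR-5884, against 67.8 and 60.9 TPM with DMSO. Here the groups overlapped, with CBR-5884 library 2 between the DMSO libraries, and the log2 fold change was 0.14 (95% interval −0.13 to 0.41). With CBR-5884 library 4 left out it was 0.03, with DMSO library 4 left out 0.06, and with CBR-5884 library 2 left out 0.25. The level of Sycp3 was 2.99 and 2.51 times that of Sycp2 with CBR-5884, and 2.79 and 2.65 times with DMSO.

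The HORMA domain genes lay higher with CBR-5884 in each library, within intervals that include 0. Hormad1, needed for break formation and for synapsis (chromosome 3, 95559677 to 95587671, plus strand), had 71.5 and 68.4 TPM with CBR-5884, against 67.8 and 58.6 TPM with DMSO. The lower CBR-5884 library and the higher DMSO library were less than 1 TPM apart. Its log2 fold change was 0.15 (SE 0.10; 95% interval −0.10 to 0.40; limma adjusted p = 0.998), with 0.04 when DMSO library 4 was left out and 0.25 when DMSO library 2 was. Of its words 36.3% are shared, mostly with the pseudogene Gm15529, which had 0.495 to 1.63 TPM. Hormad2, which acts in the surveillance of unjoined axes (chromosome 11, 4345814 to 4441105, minus strand), had 35.3 and 36.9 TPM with CBR-5884, against 32.5 and 29.2 TPM with DMSO. The groups did not overlap, and the log2 fold change was 0.22 (SE 0.11; 95% interval −0.05 to 0.49; limma adjusted p = 0.998). Hormad1 stood at 2.03 and 1.85 times Hormad2 with CBR-5884, and at 2.08 and 2.00 times with DMSO.

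The central element holds the members with the highest and the lowest fold change, Six6os1 and Syce2. Six6os1, which links Sycp1 with Syce1 (chromosome 12, 72881109 to 72940774, minus strand), had 108 and 124 TPM with CBR-5884, against 85.9 and 102 TPM with DMSO. Its means were 116 ± 11.2 and 93.7 ± 11.1 TPM (SD, n = 2 each), and the groups did not overlap. The log2 fold change was 0.31 (SE 0.12; 95% interval 0.03 to 0.59), with an unadjusted p of 0.0373 and an adjusted p of 0.998 in limma. Of its 31-base words 4.29% are shared with other genes, mainly Six6, the eye and pituitary transcription factor across it on the other strand, which had 0.0664 to 0.175 TPM. Tex12 (chromosome 9, 50556819 to 50561325, minus strand), which assembles with Syce2 into the fibres of the central element, had 60.6 and 63.2 TPM with CBR-5884, against 49.8 and 54.9 TPM with DMSO. The groups did not overlap, and the log2 fold change was 0.24 (SE 0.09; 95% interval 0.01 to 0.47), with an unadjusted p of 0.0440 and an adjusted p of 0.998 in limma. At an unadjusted p under 0.05 and a positive fold change stood 1.51% of all genes tested.

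Syce2, the partner of Tex12 (chromosome 8, 84872111 to 84888221, plus strand), was the member with a negative fold change. It had 198.0 and 189 TPM with CBR-5884, against 198.6 and 221 TPM with DMSO. The highest CBR-5884 and the lowest DMSO values were nearly equal, and the log2 fold change was −0.11 (SE 0.08; 95% interval −0.32 to 0.09; limma adjusted p = 0.998). Syce2 stood at 3.27 and 2.99 times Tex12 in the CBR-5884 libraries, and at 3.99 and 4.03 times in the DMSO libraries. This ratio was picked out with the values known and is given with no test; of 7 ratios between partners, it and that of Syce1 to Six6os1, 0.703 and 0.616 with CBR-5884 and 0.852 and 0.743 with DMSO, had groups that did not overlap.

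Syce1 (chromosome 7, 140777229 to 140787852, minus strand), which binds Six6os1 and Syce3, was the steadiest member. It had 76.0 and 76.4 TPM with CBR-5884, against 73.1 and 75.5 TPM with DMSO, which gives a log2 fold change of 0.04 and a 95% interval from −0.16 to 0.23. Differences larger than 1.17-fold up lie outside that interval. Syce3, a small protein that loads the central element onto Sycp1 (chromosome 15, 89390174 to 89410503, minus strand), had 54.9 and 36.9 TPM with CBR-5884, against 40.0 and 45.7 TPM with DMSO. The CBR-5884 libraries enclosed both DMSO libraries, so the groups overlapped. Its log2 fold change was 0.07 (SE 0.19), with the widest interval of the 10, −0.40 to 0.54. Leaving out CBR-5884 library 2 gave −0.21, leaving out CBR-5884 library 4 gave 0.35, and leaving out DMSO library 2 gave −0.02. Its longest annotated coding transcript, of 480 bases, is shorter than that of any other member, and the estimated number of reads behind it was 41.8 to 87.1 per library over both settings of the depth estimate and both the shortest and longest transcript.

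**Figure D3:**
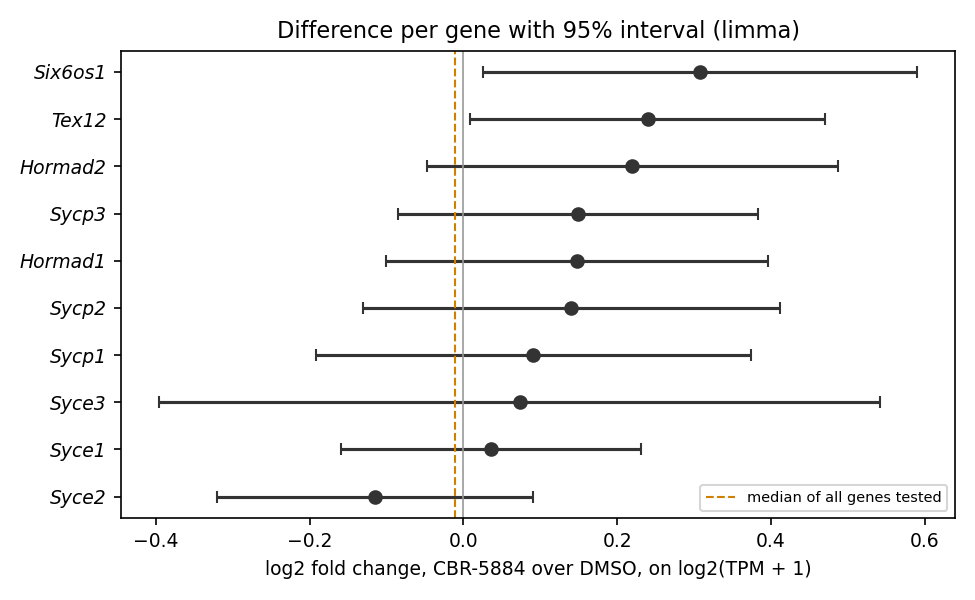
Log2 fold change of each gene, CBR-5884 over DMSO, on log2(TPM + 1) (points), with limma's 95% interval (bars); the dashed line is the median of all genes tested, −0.01. The intervals of Six6os1 and Tex12 begin just above 0, and those of the other 8 genes include 0.

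Counted over the set, CBR-5884 values lay wholly above DMSO values in 6 members (Sycp3, Six6os1, Syce1, Hormad1, Tex12 and Hormad2), as for 13.6% of all genes tested, and wholly below in 1 (Syce2), as for 17.7%. DMSO library 4 held the lowest value of 5 members (Sycp1, Sycp2, Sycp3, Hormad1 and Hormad2), and DMSO library 2 that of 3. DMSO library 4 also had the lowest level of 6 of 7 Sertoli markers and DMSO library 2 the highest of 6 of 7; their part in the result was not tested. The members' median log2 fold change was 0.13 when CBR-5884 library 2 was left out, 0.17 when CBR-5884 library 4 was, 0.20 when DMSO library 2 was and 0.06 when DMSO library 4 was. Summed over the 10 members the level was 1060 and 1066 TPM with CBR-5884, against 1013 and 976 TPM with DMSO. The 4 axis genes together had 369 and 374 TPM with CBR-5884, against 357 and 310.3 TPM with DMSO, while the 5 central element genes had 498 and 489.7 TPM with CBR-5884, against 447 and 499 TPM with DMSO. The summed central element overlapped between the groups, with Syce2, its most abundant gene, at a negative and the other 4 at positive fold changes.

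**Figure D4:**
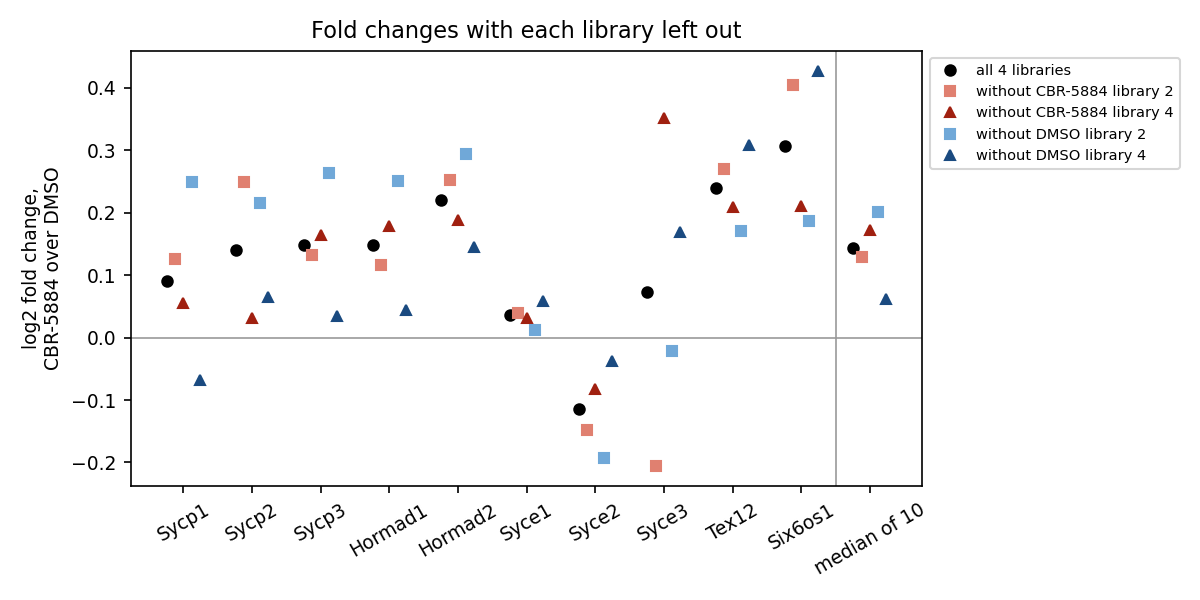
Log2 fold change of each gene and of the median over the 10 genes (vertical axis, CBR-5884 over DMSO, on log2(TPM + 1)) from all 4 libraries (black) and with each library left out in turn (coloured symbols). Sycp1 and Syce3 cross 0; the median runs from 0.06 to 0.20.

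By promoter, the 5 members with CACGTG had log2 fold changes of 0.09 to 0.31 with a median of 0.15, and the 5 without it had −0.11 to 0.22 with a median of 0.07. Across all tested genes the median was −0.01 for the 928 with the motif and −0.01 for the 9734 without. By CCTCAG, the 4 members with it had 0.15 to 0.31 with a median of 0.23. The 6 without it had −0.11 to 0.15 with a median of 0.08. By TTCCCGC, the medians were 0.15 for the 3 members with it and 0.09 for the 7 without. For both motifs the medians of tested genes with and without it were −0.01. The ranges of members with and without a motif overlapped for each motif, and no split was tested.

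Genes that act on meiotic chromosomes, and 13 regulators of meiotic entry and of germline genes, were taken from 7 lists by textbook role. These lists held 62 genes in the table, of which 60 were tested. None was called by limma in either direction (0 of 60). In limma 4 of the 60 had an unadjusted p under 0.05, of which 1 was higher and 3 lower. Of all 14920 genes tested, 3.66% had such a p, 225 of them higher and 321 lower. The median log2 fold change of the 60 was 0.01, with 34 positive and 26 negative, where 47.2% of all genes tested were positive. Groups did not overlap in 15 higher and 9 lower of the 60, where 13.6% of all genes tested did so higher and 17.7% lower. The medians of the single lists lay between −0.02 and 0.07, against 0.14 for the members and −0.01 for all genes tested.

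Of the meiotic cohesins and axis genes 5 of 7 were tested, with 3 positive and 2 negative. Rec8, the cleavable cohesin subunit of meiosis, had 40.1 and 47.6 TPM with CBR-5884, against 56.3 and 50.8 TPM with DMSO, and its log2 fold change was −0.29 (limma unadjusted p = 0.0531). Rad21l, another meiotic subunit of the same kind, had 9.19 and 12.4 TPM with CBR-5884, against 10.2 and 7.94 TPM with DMSO, and overlapped. Sycp2l, a relative of Sycp2 known from oocytes and named here for its role, had a mean under 1 TPM and was not tested.

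Among HORMAD partners and break formation genes 6 of 9 were positive. Trip13, which strips Hormad1 and Hormad2 from joined axes, had 107 and 104 TPM with CBR-5884, against 93.5 and 109 TPM with DMSO; it was named after its values were seen, for its role. Spo11, the enzyme that makes the breaks, was low, with 2.67 and 2.60 TPM with CBR-5884 and 1.79 and 2.29 TPM with DMSO. Mad2l1bp, an adaptor of Trip13, had the lowest fold change of the list, −0.36, with 7.37 and 6.01 TPM with CBR-5884 and 9.25 and 8.43 TPM with DMSO. Neither passed the threshold (limma adjusted p = 0.998).

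Telomere attachment genes had 3 of 6 positive. Kash5, which ties telomeres to the dynein motor across the nuclear envelope, had 8.18 and 9.27 TPM with CBR-5884, against 6.71 and 4.70 TPM with DMSO, a log2 fold change of 0.55 (SE 0.22; limma unadjusted p = 0.0492, adjusted p = 0.998). Terb1, a telomere linker, had 2.34 and 3.09 TPM with CBR-5884, against 3.09 and 3.76 TPM with DMSO. In the strand exchange list 6 of 8 were positive. Dmc1, the meiotic recombinase, had 22.4 and 32.1 TPM with CBR-5884, against 21.6 and 26.3 TPM with DMSO. Spata22, a partner of Meiob on single-stranded DNA, had 5.41 and 5.17 TPM with CBR-5884, against 3.90 and 4.43 TPM with DMSO. Psmc3ip, the cofactor of Dmc1, had 47.6 and 42.2 TPM with CBR-5884, against 47.8 and 63.3 TPM with DMSO. The groups overlapped for Dmc1 and did not for Spata22 and Psmc3ip, which lay on opposite sides.

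Of the 12 crossover and synapsis factors 7 were positive, between Rnf212, a SUMO ligase of crossover sites (15.0 and 12.5 TPM with CBR-5884, against 11.5 and 8.19 TPM with DMSO; log2 fold change 0.45, SE 0.21), and Cntd1, a cyclin-like crossover factor (6.01 and 7.45 TPM with CBR-5884, against 7.15 and 9.43 TPM with DMSO; log2 fold change −0.26, SE 0.22). Of the 7 genes of signalling from unsynapsed axes 2 were positive. Atrip, the partner of the kinase Atr, had 53.1 and 42.4 TPM with CBR-5884, against 63.4 and 58.4 TPM with DMSO (log2 fold change −0.35, SE 0.13; limma unadjusted p = 0.0345, adjusted p = 0.998). Mdc1, an adaptor that spreads the mark of damaged chromatin, had 57.1 and 61.3 TPM with CBR-5884, against 56.2 and 53.9 TPM with DMSO.

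Of the 13 meiotic entry and germline regulators 7 were positive. Stra8, the factor induced by retinoic acid that drives meiotic entry, had the lowest fold change of the list, with 376 and 323 TPM with CBR-5884, against 476 and 399 TPM with DMSO. Its log2 fold change was −0.32 (SE 0.12; limma unadjusted p = 0.0338, adjusted p = 0.998), so that its estimate and those of 9 of the 10 members had opposite signs. Pcgf6, a subunit of the E2f6 and Mga repressor complex, had the highest fold change of the list, with 46.8 and 41.6 TPM with CBR-5884, against 38.4 and 38.0 TPM with DMSO (log2 fold change 0.20, SE 0.10; limma adjusted p = 0.998).

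**Figure D5:**
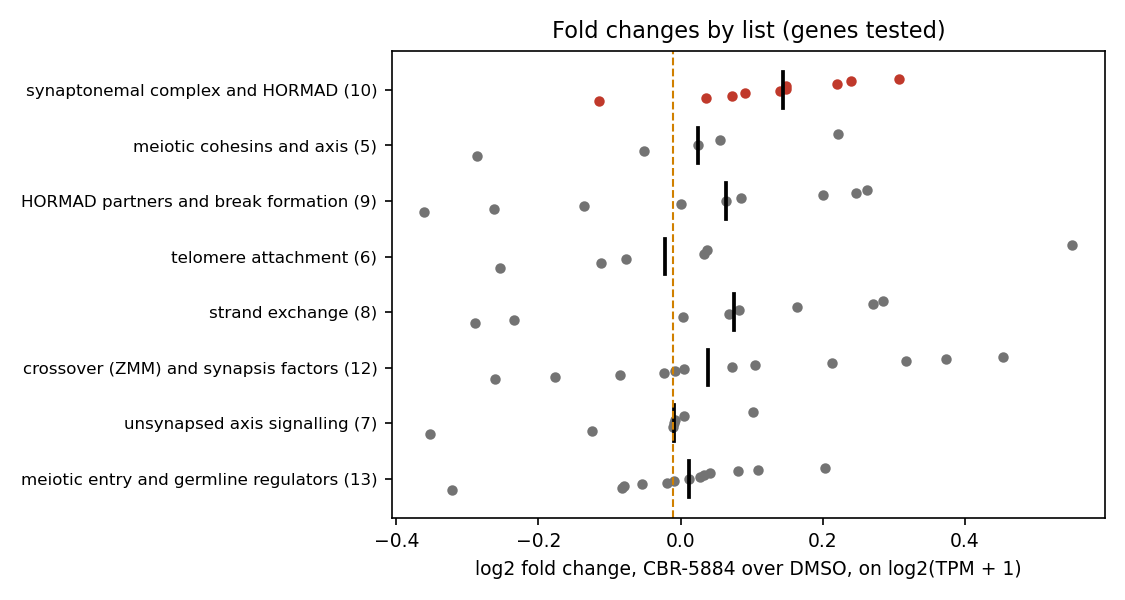
Log2 fold change, CBR-5884 over DMSO, on log2(TPM + 1), of each gene tested (points) in the synaptonemal complex and HORMAD set (red) and in 7 related lists (grey); black bars are list medians, numbers in brackets count the genes, and the dashed line is the median of all genes tested, −0.01. The red median is 0.14, and those of the grey lists lie between −0.02 and 0.07.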

How the data were processed

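The tools fastp and kallisto and the build mm10 are named in the submitters' processing notes, without versions, settings or strand handling. The 2 deposited value columns are named scaled reads per base and TPM, per the file headers. The headers give no formula; that the deposited TPM signal was rescaled between libraries is inferred from its sums, and no source used here says how either measure was brought to gene level. Neither is a count. The table repeats a gene's value for every transcript, and duplicates were dropped, leaving 36088 genes. Libraries were assigned to groups by the table's condition column.

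The members and gene lists were chosen with earlier results of these data known. A quasi-likelihood count test had been kept for a table of counts and was not needed. All 4 libraries were fitted with limma 3.58.1 in R 4.3.3 (trend, two-sided, no covariate) on log2(TPM + 1), over the 14920 genes whose TPM averaged 1 or more, with Benjamini-Hochberg adjustment over all of them and calls at 0.05. Fold changes on this scale understate those of low genes. Intervals are 95%. With 2 against 2 libraries an exact permutation test cannot go below p = 0.33 and was not used. The design text calls the replicates biological; the labels do not say whether they came from separate animals, so p-values measure the spread between these libraries, which may be technical. Tested on 20 simulations of this comparison with 14920 genes each, the fit called 31.2% of 2-fold and 64.2% of 4-fold changes, with 1.85 false calls per table. The simulations took each gene's SD within groups, itself estimated from these few libraries, as its true SD. Changed genes were drawn from all genes tested, and changes as small as those of the members were not simulated. The rates therefore do not give the power for the members.

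Named genes were all members, the highest and lowest fold change of each related list, and Stra8, Rec8, Dmc1 and Spo11. Trip13 and Sycp2l were added for their roles after values were seen, and the genes that share sequence with members are named for that. The names Speedya, Hop2 and Spo16 matched no symbol. Positions and shared 31-base words come from GENCODE M21 (GRCm38, also called mm10), and promoters from RefSeq, at the first start listed for a gene. The motifs and windows were chosen after the values had been seen. Depth and reads were estimated assuming fragments of 180 bases. The settings of that estimate were changed after a first result was seen and compared with an earlier account of these data, and both results are given; none enters a test. Coordinates are 1-based.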

Additional observations from a re-analysis of the deposited data

How the results depend on the processing

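No member and no related gene was called under any of the 12 alternatives: a pseudocount of 0.1, no filter, a mean TPM of at least 5, scaled reads, equal library totals, median-ratio factors, robust variance, the replicate block and 4 fits without 1 library. Over all genes 1 was called with scaled reads (Hspa1b) and 1 with robust variance, against 0 otherwise. The members' median log2 fold change was 0.14 to 0.17 under the settings that kept all libraries and 0.0614 to 0.202 with 1 left out; the cause was not tested. Leaving out 1 library gave −0.0676 to 0.250 for Sycp1 and −0.206 to 0.352 for Syce3, the members that changed sign. For the other 8 the sign held, over 0.03 to 0.26 for Sycp3, 0.03 to 0.25 for Sycp2, 0.04 to 0.25 for Hormad1, 0.01 to 0.06 for Syce1, 0.17 to 0.31 for Tex12, 0.19 to 0.43 for Six6os1, 0.15 to 0.29 for Hormad2 and −0.19 to −0.04 for Syce2; where 1 library of a group is left, it is assumed to vary like the other group.

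At an unadjusted p under 0.05 stood Six6os1 and Tex12 under 7 settings besides the fit of all 4 libraries; Tex12 alone with no filter, Six6os1 alone with scaled reads or without CBR-5884 library 2, 0 members without CBR-5884 library 4, and Sycp3 alone without DMSO library 2. The numbers 2 and 4 in the library names are shared between the groups, and deviations of same-numbered libraries correlated at 0.20 over 14920 genes. Log2 values correlated at 0.986 between the libraries numbered 2 and at 0.980 between those numbered 4. Within a group they correlated at 0.981 with CBR-5884 and at 0.978 with DMSO. CBR-5884 library 2 and DMSO library 4 correlated at 0.977, and CBR-5884 library 4 and DMSO library 2 at 0.982. With 2 pairs and no label that ties them, same-numbered libraries were not taken as pairs. With the number as replicate block, 0 genes and 0 members were called (smallest adjusted p of a member 0.705, limma). By its longest transcript Syce3 has the fewest estimated reads, 46.8 to 87.1 per library; the part of depth in its spread was not tested. The depth estimate itself moved with its settings, an alternative added after seeing the data: the first settings gave 1.32, 1.32, 1 and 1.07 for CBR-5884 libraries 2 and 4 and DMSO libraries 2 and 4, against 1.24, 1.15, 1.15 and 1 under the later ones.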
